A study of Mus musculus with 11 samples.

Results

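The genes described here are 9 transcription factor genes of the bile duct lineage, Sox9, Sox4, Onecut1, Onecut2, Foxa1, Foxa2, Foxa3, Gata6 and Grhl2. They were taken by gene symbol from a table of 43346 genes, and all 9 were found in it, each once. The RNA came from the livers of 11 wildtype C57BL/6 male mice aged 14 to 16 weeks. Liver cells were caught on magnetic beads against EpCAM, an epithelial surface protein, in 2 column passes, and sequenced as 1 library per mouse. The 3 R15 mice ate the DDC diet for 10 days and then chow for 15 days, the 4 DDC mice ate the DDC diet for 10 days, and the 4 Control mice ate chow throughout. The DDC diet blocks heme synthesis and gives mice a cholestatic liver injury in which bile duct cells proliferate. Levels are in FPKM, reads scaled to the length of the gene and to the reads of the library. A gene was tested where it reached FPKM 1 in at least 3 libraries.

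Bile duct cells, or cholangiocytes, arise in the mouse embryo from the same progenitors as hepatocytes. A layer of progenitors around the portal vein, the ductal plate, switches on Sox9 under Notch and TGF beta signals and folds into tubes. Onecut and Foxa factors act in that choice of fate, Foxa factors as pioneers that open chromatin, and Grhl2 acts later in the epithelial junctions of the tube. Sox9, Onecut and Foxa genes stay active in the adult mouse duct.

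The libraries held 49339240 to 72929107 reads, and the 9 genes rested on between 442 reads (Foxa3 in DDC 3) and 64221 reads (Onecut2 in R15 1). Epcam itself averaged 294 ± 9.19 FPKM in R15, 406 ± 31.9 in DDC and 290 ± 24.2 in Control (SD over 3, 4 and 4 libraries, as throughout), and all 16 genes of a list of cholangiocyte markers were present in every library. Markers of other cell types were detected as well. The summed FPKM of 11 macrophage markers ran from 146 to 789 in R15, 1401 to 2533 in DDC and 134 to 159 in Control. That of 12 endothelial markers ran from 73.7 to 238 in R15, 30.7 to 66.1 in DDC and 108 to 495 in Control, and that of 14 hepatocyte markers from 2042 to 2848 in R15, 1272 to 1881 in DDC and 3204 to 3874 in Control. None of these markers was at 0 in any library. The neutrophil list of 6 genes, of which Ly6g was at 0 in all R15 and Control libraries, summed to 2.66 to 9.98 FPKM in R15, 41.7 to 70.2 in DDC and 1.36 to 3.96 in Control. The sum of 10 stellate cell and fibroblast markers ran from 163 to 223 FPKM in R15, 420 to 507 in DDC and 31.6 to 61.3 in Control, and that of 6 B and plasma cell markers from 38.4 to 173 in R15, 11.6 to 23.1 in DDC and 41.3 to 89.7 in Control. The 8 T and NK cell markers summed to at most 14.9 FPKM in any library. The stellate sum is nearly all Rgs5, a pericyte gene, at 175 ± 22.1 FPKM in R15, 452 ± 37.9 in DDC and 37.5 ± 13.7 in Control. Only 3 of the 10 were tested, and of the others Reln was lower in DDC than in Control (-0.74 ± 0.08 on the log2 scale, limma adjusted p = 2.5e-05) and Acta2 did not pass. Macrophage and neutrophil sums were highest in DDC and endothelial, hepatocyte and B cell sums lowest there, without overlap with the other groups. In DDC and Control most of the hepatocyte sum is Alb, the albumin gene. Of the 14 hepatocyte markers, 4 passed as higher in DDC than in Control and 4 as lower. Genes of pancreatic acinar cells took over 0.05% of the reads in 5 libraries, R15 3 (0.187%), DDC 1 (0.132%), Control 1 (1.16%), Control 2 (0.309%) and Control 3 (0.134%). Gastric mucous genes took 1.02% of the reads in Control 3 and at most 0.00965% in the others. In bulk RNA of this kind, fewer cells of a type and less RNA of a gene per cell cannot be told apart.

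The genes of the group differed widely in level. In Control, per kilobase of gene, Sox4 (112 ± 12.4 FPKM) and Sox9 (104 ± 16.1) were highest, followed by Onecut1 (71.6 ± 9.13), Onecut2 (55.9 ± 8.96), Gata6 (49.7 ± 1.67), Foxa2 (34.1 ± 1.53), Foxa1 (22.9 ± 3.78), Grhl2 (18.4 ± 1.49) and Foxa3 (7.38 ± 1.93; SD, n = 4 each). The ranges of Sox4 and Sox9, of Onecut1 and Onecut2, of Onecut2 and Gata6 and of Foxa1 and Grhl2 overlapped between libraries, while Gata6 against Foxa2 and Grhl2 against Foxa3 did not. This order rests on the deposited gene lengths. They are shorter than the merged exons of GENCODE M21 for Gata6 (3194 against 6508 bases), Grhl2 (5506 against 8613) and Onecut2 (13391 against 16234). Foxa1 differed by less (3188 against 3327), and the effect on the order was not tested. In Control, Sox4 and Sox9 lay at percentiles 97.5 and 97.3 of all tested genes by mean level, Foxa3 at percentile 46.6. The order in R15 was the same as in Control. In DDC the order differed: Onecut2 (50.5 ± 1.75 FPKM) stood above Sox9 (48.2 ± 1.70) in 3 of 4 libraries and above Onecut1 (35.4 ± 1.76) in all 4. Grhl2 (12.5 ± 0.593 FPKM) also stood above Foxa1 (12.3 ± 1.24) there, in 3 of 4 libraries.

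**Figure D1:**
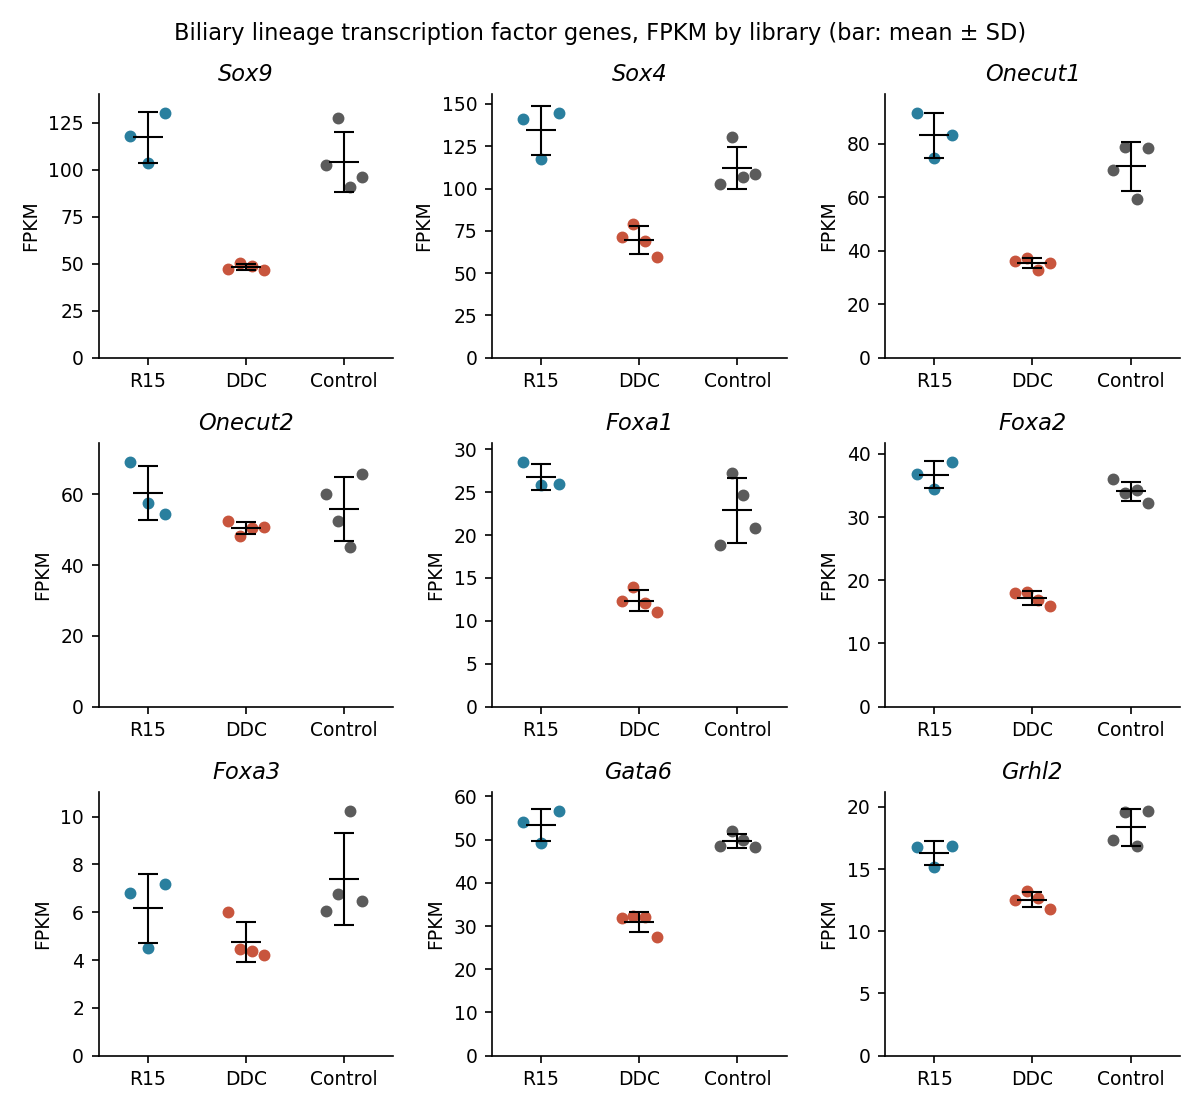
FPKM of the 9 genes in each library, 1 panel per gene, with R15 (n = 3), DDC (n = 4) and Control (n = 4) along the x axis and FPKM from 0 on the y axis. Points are libraries and black bars the mean ± SD. The 4 DDC libraries lie below every R15 and every Control library for Sox9, Sox4, Onecut1, Foxa1, Foxa2, Gata6 and Grhl2.

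Start regions of the genes are shown for 4 of the genes that were lower in DDC than in both other groups, with the CCAAT box marked because the study's title names NF-Y, the factor that binds it. A window of 250 bases before the annotated start was read from RefSeq's promoter table (GRCm38.p6), which matched 5 of the 9 genes, Sox4, Onecut1, Foxa1, Foxa2 and Foxa3. Capitals mark CCAAT or its reverse complement ATTGG. The windows are Sox4 at chr13:28953700-28953949 (minus strand), Foxa1 at chr12:57546112-57546361 (minus strand), the outermost of the Foxa2 starts at chr2:148046970-148047219 (minus strand) and Onecut1 at chr9:74861671-74861920 (plus strand), each written 5′ to 3′ on the gene's strand.
Sox4: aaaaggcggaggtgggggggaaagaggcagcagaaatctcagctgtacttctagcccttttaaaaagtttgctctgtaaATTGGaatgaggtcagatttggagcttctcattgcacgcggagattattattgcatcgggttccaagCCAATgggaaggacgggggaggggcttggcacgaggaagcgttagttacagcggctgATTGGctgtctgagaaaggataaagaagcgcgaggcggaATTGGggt
Foxa1: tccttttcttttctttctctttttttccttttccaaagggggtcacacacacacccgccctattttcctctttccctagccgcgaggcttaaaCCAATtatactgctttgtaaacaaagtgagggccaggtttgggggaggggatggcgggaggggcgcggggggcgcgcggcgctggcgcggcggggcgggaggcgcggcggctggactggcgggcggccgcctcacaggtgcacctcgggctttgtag
Foxa2: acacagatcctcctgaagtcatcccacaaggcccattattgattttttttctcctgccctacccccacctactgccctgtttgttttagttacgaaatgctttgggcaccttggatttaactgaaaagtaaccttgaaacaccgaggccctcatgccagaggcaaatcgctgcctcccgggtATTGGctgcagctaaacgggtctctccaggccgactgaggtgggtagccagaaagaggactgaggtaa
Onecut1: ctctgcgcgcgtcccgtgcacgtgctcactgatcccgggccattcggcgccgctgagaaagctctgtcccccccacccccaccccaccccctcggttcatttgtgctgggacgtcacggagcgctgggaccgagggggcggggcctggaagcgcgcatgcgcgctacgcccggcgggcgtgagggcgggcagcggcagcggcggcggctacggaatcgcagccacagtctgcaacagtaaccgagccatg
Sox4 held 4 matches, whose first letters lay 171, 104, 47 and 8 bases before the RefSeq start. Foxa1 held 1 match at 157 bases, Foxa2 1 at 68 bases and Onecut1 none. The Foxa3 window held 1 as well. The Sox4 and Foxa1 windows reach into the deposited coordinates of these genes, which end at 28953713 and 57546121. The Sox4 match at 8 bases therefore lies inside the gene by those coordinates. On both strands, 33.8% of all 32851 windows of this length in the table hold the motif, and 4 of the 7 windows of these genes did, since Foxa2 has 3 annotated starts. Read on both strands, the ONECUT letters ATTGAT occurred in the Foxa2 window (in 6.72% of all windows), the forkhead letters TGTTTAC in the Foxa1 window (3.17%) and the GATA letters AGATAA in an inner Foxa2 window (9.99%). No match overlapped one of another motif. A match in these letters does not show binding, and none was measured here.

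After 10 days of the diet, 8 of the 9 genes were lower than on chow and none was higher. The tests here are limma fits of log2(FPKM + 1) over 15264 genes, with Benjamini-Hochberg adjusted p-values and a threshold of 0.05. Among all tested genes 65.4% passed, 31.9% lower in DDC and 33.5% higher. That is 4869 genes lower and 5112 higher, a balance that turned to 5518 lower and 4162 higher with one FPKM sum. It also turned after quantile normalization, to 5309 lower and 4652 higher, and under median-of-ratios scaling, to 5023 lower and 4993 higher. The median log2 fold change of the 9 genes was -0.68, against 0.00291 for all tested genes. The 8 genes that fell had no overlap between DDC and Control libraries, and 29.8% of all tested genes were lower in this way and 31.5% higher. The exception was Onecut2. Macrophage markers rose in the same DDC libraries (10 of 11 passed, 6 without the 5 libraries with pancreatic transcripts) and endothelial markers fell (10 of 12 passed). Hepatocyte markers went both ways, with 4 of 14 higher and 4 lower, and Alb, the albumin gene of hepatocytes, stood at 1028 ± 222 FPKM in DDC and 2773 ± 302 in Control (SD, n = 4 each). The part of these cell types in the fall of the 9 genes was not tested. Epcam was higher in DDC by 0.48 ± 0.08 on the log2 scale over the same libraries (SE; adjusted p = 2.8e-04). Spp1, the osteopontin gene of cholangiocytes, did not pass, at 8569 ± 410 FPKM in DDC and 7570 ± 1491 in Control. Of the 16 cholangiocyte markers, 5 rose and 8 fell in DDC. Among those that rose was Tspan8, a tetraspanin gene, at 582 ± 36.7 FPKM in DDC and 265 ± 23.0 in Control (1.13 ± 0.08 on the log2 scale). Among the 8 that fell were Pkhd1 (-1.41 ± 0.13 on the log2 scale), Anxa13 (-0.59 ± 0.05) and Ggt1 (-0.55 ± 0.07), each without overlap. These fallers were named after their values were seen.

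After the return to chow most of the group was higher again. In R15 against DDC, 7 of the 9 genes were higher and none was lower, beside 62.2% of all tested genes that passed, 33.4% higher and 28.8% lower. The median log2 fold change of the 9 genes was 0.94, against 0.0352 for all tested genes. In 8 of the 9 the 3 R15 libraries lay above all 4 DDC libraries, a position held by 35.6% of all tested genes, while 31% lay below. Over the same libraries 8 of 11 macrophage markers were lower in R15 than in DDC (4 without the libraries with pancreatic transcripts) and 9 of 12 endothelial markers higher (4 to 5 without R15 2, R15 3, DDC 2 or those libraries), and their part was not tested. The exceptions to the test were Onecut2 and Foxa3. After scaling all libraries to the same FPKM sum, 6172 of all tested genes were higher and 3305 lower in R15 against DDC, where the deposited scaling gave 5099 and 4397, and 8 of the 9 genes passed, all higher. With median-of-ratios scaling the balance of all tested genes turned round, to 4528 higher and 4943 lower, and 7 of the 9 genes passed. Both comparisons contain the DDC libraries, so their values for one gene are not independent.

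No gene of the group passed the test between R15 and Control. The limma count was 0 of 9, beside 9.58% of all tested genes, 6.87% higher and 2.72% lower. All 9 genes overlapped between R15 and Control, where 15% of all tested genes lay wholly higher and 6.3% wholly lower. By limma voom on whole reads the count was also 0. In the limma fit of log2(FPKM + 1), 2 genes, Sox4 and Grhl2, had an unadjusted p under 0.05. Of the genes that fell under the diet, Sox9, Sox4, Onecut1, Foxa1, Foxa2 and Gata6 had log2 fold changes above 0 in R15 against Control, from 0.10 for Gata6 and for Foxa2 to 0.26 for Sox4. Foxa3 (-0.22 ± 0.19) and Grhl2 (-0.16 ± 0.07) were below 0. The intervals leave room for small differences: the 95% interval ran from -0.07 to 0.42 for Sox9, from 0.01 to 0.51 for Sox4 and from -0.31 to -0.02 for Grhl2.

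**Figure D2:**
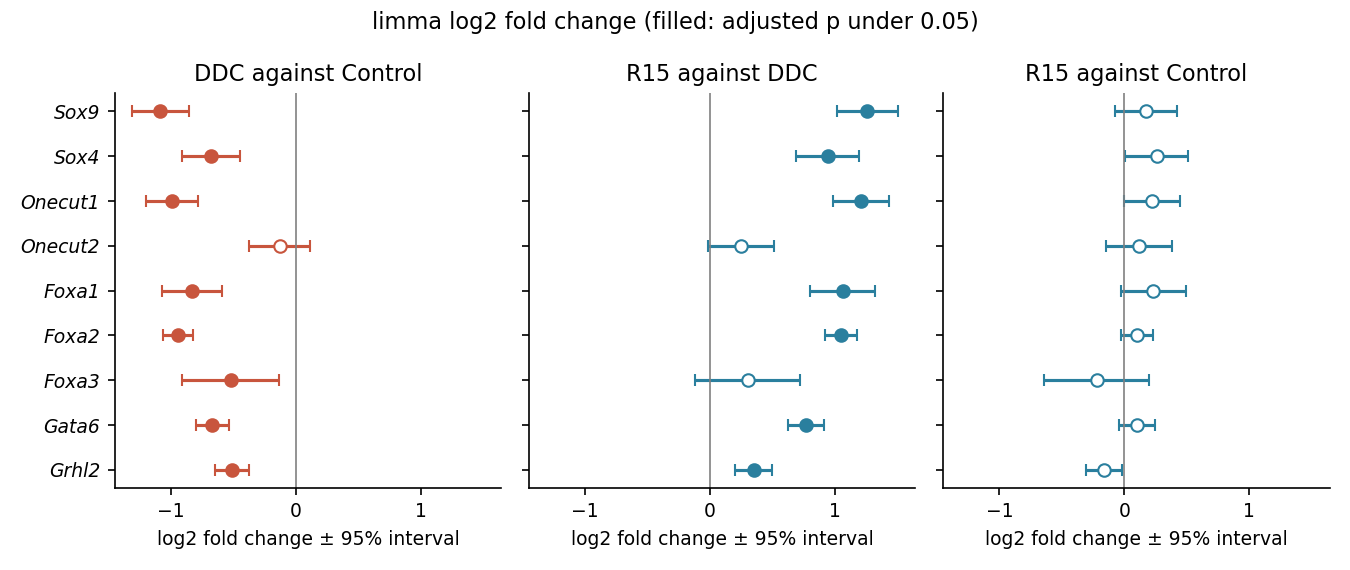
Log2 fold change of each gene with its 95% interval (limma) for DDC against Control, R15 against DDC and R15 against Control. Filled points passed the adjusted p threshold of 0.05, which 8 genes did in the first panel, 7 in the second and 0 in the third.

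Sox9 and Sox4 encode HMG-box factors that act together in the morphogenesis of mouse bile ducts, and Sox9 is the customary marker of the duct lineage. Sox9 (ENSMUSG00000000567, mm10 chromosome 11, 112782224 to 112787760, plus strand, 3 exons) stood at 118, 103 and 130 FPKM in R15 1 to 3, at 47.3, 50.3, 48.8 and 46.4 in DDC 1 to 4 and at 102, 127, 90.7 and 96.2 in Control 1 to 4. All DDC libraries lay within a narrow band below the other 7, whose R15 and Control values overlapped. DDC means were 46.3% of Control means, and the change on the log2 scale was -1.08 ± 0.10 (SE; limma adjusted p = 9.2e-06), at percentile 4.04 of all tested genes. In R15 against DDC the change was 1.26 ± 0.11 (adjusted p = 1.1e-05). Sox4 (ENSMUSG00000076431, chromosome 13, 28948919 to 28953713, minus strand, a single exon) stood at 141, 118 and 145 FPKM in R15, at 71.6, 78.9, 68.7 and 59.3 in DDC and at 103, 130, 107 and 109 in Control. Here too DDC did not overlap with either other group, but the fall was shallower, at -0.68 ± 0.10 (adjusted p = 2.4e-04) against Control, and R15 was higher than DDC by 0.94 ± 0.11 (adjusted p = 7.2e-05).

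A ratio of 2 family members within a library cancels the scaling of that library, apart from the pseudocount of 1. The log2 ratio of Sox9 over Sox4 was -0.51 ± 0.13 in DDC and -0.11 ± 0.11 in Control (SD, n = 4 each), with no overlap. An exact permutation test over the libraries (2-sided) gave p = 0.0286, the smallest that 4 against 4 can give, and 0.0571 after adjustment over the 4 ratios compared, which misses the threshold. In R15 the ratio was -0.20 ± 0.05 (SD, n = 3), again without overlap with DDC, where an exact p cannot fall below 0.0571 for 3 against 4 libraries.

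Onecut1 and Onecut2 encode cut-homeodomain factors, and mouse embryos that lack both form cells of mixed hepatocyte and duct character. Onecut1 (ENSMUSG00000043013, chromosome 9, 74861921 to 74891781, plus strand) stood at 91.4, 74.8 and 83.2 FPKM in R15, at 36.0, 37.1, 33.0 and 35.3 in DDC and at 70.1, 78.7, 59.2 and 78.3 in Control. Its DDC libraries, from 33.0 to 37.1 FPKM, lay far below all others. The log2 fold change was -0.99 ± 0.09 in DDC against Control (adjusted p = 9.5e-06) and 1.21 ± 0.10 in R15 against DDC (adjusted p = 8.8e-06). The Onecut1 value is uncertain in one respect, since the same-strand noncoding model Gm20649 shares 2171 exon bases with it in GENCODE M21, and no source used here says how reads in shared bases were counted. Onecut2 (ENSMUSG00000045991, chromosome 18, 64340364 to 64398488, plus strand) stood at 69.2, 57.5 and 54.6 FPKM in R15, at 52.5, 48.2, 50.6 and 50.7 in DDC and at 60.1, 52.4, 45.2 and 65.8 in Control. The DDC libraries lay inside the Control range. Its change in DDC was -0.13 ± 0.11 (adjusted p = 0.32), with a 95% interval from -0.37 to 0.12 that does not reach the change of Onecut1. Without the 5 libraries that held pancreatic transcripts, which leaves a single Control library, Onecut2 passed at -0.39. In R15 against DDC its change was 0.25 ± 0.12 (adjusted p = 0.094). It passed there without Control 3 (0.25, adjusted p = 0.041) and in 5 other alternatives, with values from 0.25 to 0.36, among them the same FPKM sum for all libraries, quantile normalization and the replicate block.

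The pair of Onecut genes stood in opposite order in DDC. The log2 ratio of Onecut1 over Onecut2 was -0.50 ± 0.10 in DDC and 0.36 ± 0.16 in Control (SD, n = 4 each), a difference of -0.86 with no overlap (exact permutation p = 0.0286, the smallest possible here, adjusted 0.0571). In R15 the ratio was 0.46 ± 0.12 (SD, n = 3), a difference of 0.96 from DDC without overlap and of 0.10 from Control with overlap. Each R15 and Control library had more Onecut1 than Onecut2 per kilobase of deposited gene length, and each DDC library had less.

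Foxa1, Foxa2 and Foxa3 encode the forkhead pioneer factors of the liver. Mice that lack Foxa1 and Foxa2 together in the liver develop an excess of bile ducts, while Foxa3 is known mainly from hepatocytes. Foxa2 (ENSMUSG00000037025, chromosome 2, 148042877 to 148046969, minus strand) stood at 36.9, 34.5 and 38.7 FPKM in R15, at 18.04, 18.1, 16.9 and 15.9 in DDC and at 36.0, 33.9, 34.2 and 32.3 in Control. It varied little within groups and had the smallest adjusted p of the 9 genes in both comparisons with DDC, at -0.95 ± 0.05 against Control (adjusted p = 4.9e-07) and 1.05 ± 0.06 for R15 against DDC (adjusted p = 1.3e-06). Foxa1 (ENSMUSG00000035451, chromosome 12, 57540631 to 57546121, minus strand) stood at 28.5, 25.8 and 26.0 FPKM in R15, at 12.4, 14.0, 12.0 and 10.99 in DDC and at 18.8, 27.2, 24.7 and 20.8 in Control. No DDC library reached the lowest Control library, and the Control libraries themselves spread more than those of Foxa2. The change was -0.83 ± 0.11 in DDC against Control (adjusted p = 8.2e-05) and 1.06 ± 0.12 in R15 against DDC (adjusted p = 4.3e-05). The log2 ratio of Foxa1 over Foxa2 was -0.44 ± 0.10 in R15, -0.45 ± 0.07 in DDC and -0.57 ± 0.25 in Control, overlapping among all groups (exact permutation p = 0.49 for DDC against Control, difference 0.12).

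Foxa3 (ENSMUSG00000040891, chromosome 7, 19013282 to 19023538, minus strand) was the lowest and least certain of the group. It stood at 6.81, 4.51 and 7.18 FPKM in R15, at 6.01, 4.47, 4.39 and 4.21 in DDC and at 6.05, 6.77, 10.2 and 6.46 in Control. DDC and Control were separated only by the step between 6.01 in DDC 1 and 6.05 in Control 1, and R15 overlapped both. The fall in DDC was -0.52 ± 0.17 (adjusted p = 0.022). It missed the threshold without Control 3 (-0.37, adjusted p = 0.0504), DDC 2 (-0.50, adjusted p = 0.052), DDC 3 (-0.49, adjusted p = 0.055) or DDC 4 (-0.48, adjusted p = 0.058), and without the libraries with pancreatic transcripts (-0.48, adjusted p = 0.11), over a range of adjusted p from 0.012 to 0.11 among all alternatives. Control 3, the highest, is the library with the gastric mucous transcripts, and their part in its Foxa3 value was not tested. R15 against DDC gave 0.30 ± 0.19 (adjusted p = 0.19), and 0.48 (adjusted p = 0.047) without R15 2. The log2 ratio of Foxa3 over Foxa2 was -1.67 ± 0.16 in DDC and -2.09 ± 0.31 in Control, with overlap (exact permutation p = 0.11, adjusted 0.15). In R15 it was -2.42 ± 0.24, below all DDC libraries.

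**Figure D3:**
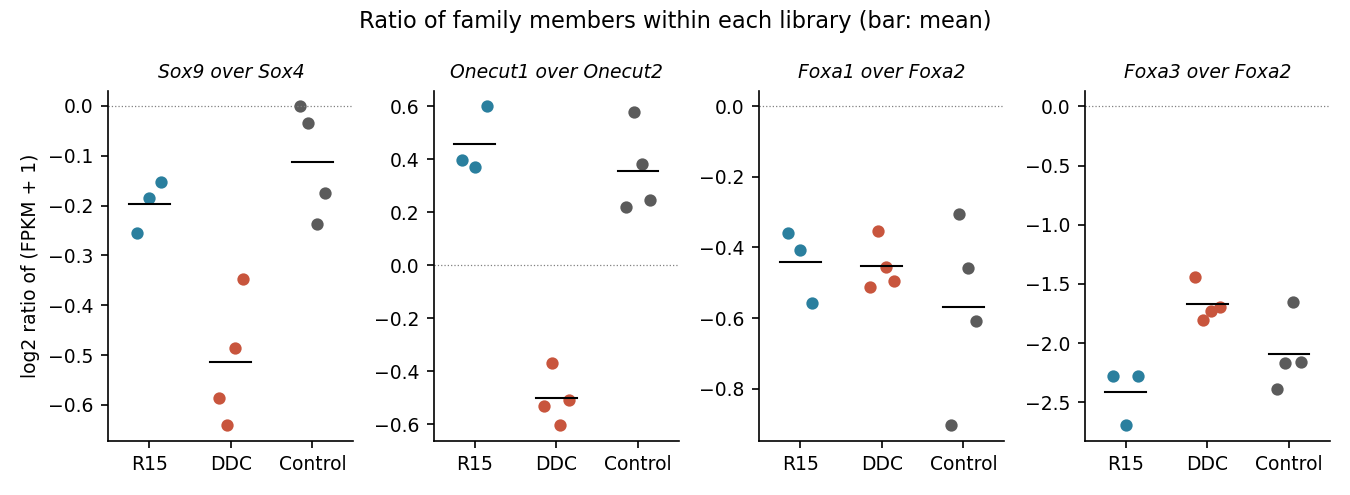
Log2 ratio of (FPKM + 1) of family members within each library, with R15 (n = 3), DDC (n = 4) and Control (n = 4) along each x axis and bars at the mean. The DDC libraries lie apart from both other groups for Sox9 over Sox4 and for Onecut1 over Onecut2, and overlap with them for Foxa1 over Foxa2. The y axes differ in range.

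Gata6 encodes a zinc finger factor needed for growth of the mouse liver bud, and Grhl2 a grainyhead-like factor that maintains epithelial junctions. Gata6 (ENSMUSG00000005836, chromosome 18, 11052510 to 11085635, plus strand) stood at 54.1, 49.3 and 56.6 FPKM in R15, at 31.8, 32.3, 32.0 and 27.6 in DDC and at 48.6, 52.0, 49.9 and 48.3 in Control. The DDC libraries were well below all the others, DDC 4 the lowest of them. Antisense models share 93 exon bases with Gata6 and 169 with Grhl2, and whether reads were counted by strand is not stated, so those bases are uncertain. The change was -0.67 ± 0.06 in DDC against Control (adjusted p = 6.5e-06) and 0.77 ± 0.06 in R15 against DDC (adjusted p = 8.8e-06). Grhl2 (ENSMUSG00000022286, chromosome 15, 37233036 to 37363569, plus strand) stood at 16.8, 15.1 and 16.8 FPKM in R15, at 12.5, 13.2, 12.7 and 11.8 in DDC and at 17.3, 19.6, 16.8 and 19.7 in Control. It fell by 0.51 ± 0.06 on the log2 scale in DDC against Control (adjusted p = 4.5e-05) and rose by 0.35 ± 0.07 in R15 against DDC (adjusted p = 0.0011). R15 lay between DDC and most Control libraries, and 68.1% of the log2 fall was undone. For the other genes that passed in both comparisons this share was 111% (Foxa2) to 138% (Sox4).

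The 9 genes can also be added up by library. The summed FPKM of the 9 genes was 563, 483 and 558 in R15, 288, 297, 279 and 262 in DDC and 462, 528, 438 and 477 in Control. R15 2, the lowest R15 library, had the highest macrophage sum of its group (789 FPKM, against 146 and 177 in R15 1 and R15 3). DDC 4, the lowest DDC library, likewise had the highest macrophage sum of its group (2533 FPKM). The other libraries did not all follow that order. Control 2 had both the highest sum of the 9 genes and the highest macrophage sum (159 FPKM) in Control, and DDC 2, the highest DDC library, had the second-highest macrophage sum in DDC (1699 FPKM). The part of macrophage RNA in these sums was not tested.

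**Figure D4:**
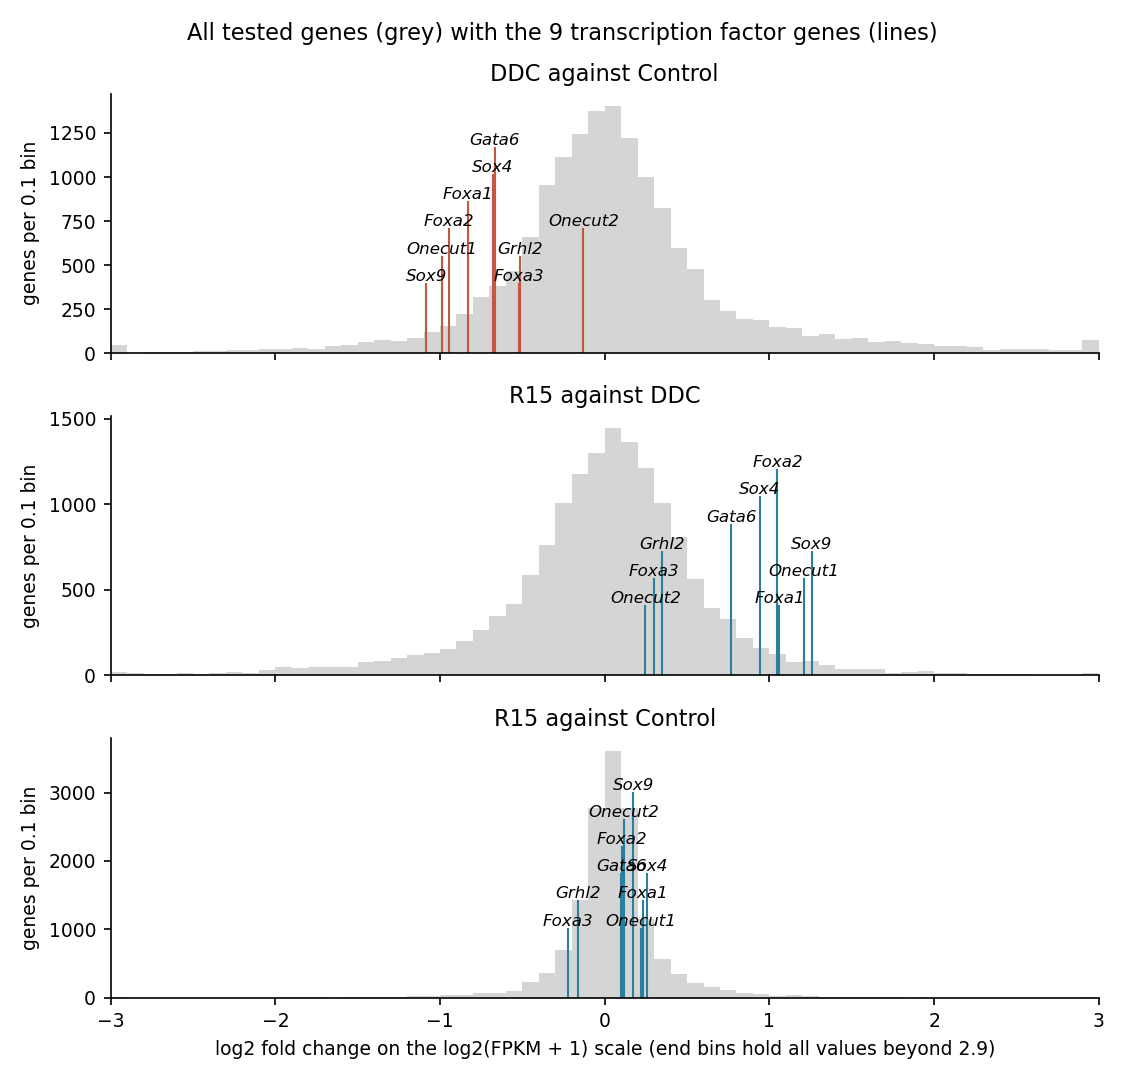
Number of tested genes per log2 fold change bin of 0.1 (grey) for the 3 comparisons, with the 9 genes as labelled lines whose height carries no value. In DDC against Control the 9 genes lie at or below -0.13, and in R15 against DDC at or above 0.25.

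Close relatives of the 9 genes were mostly low. Of 9 paralogs (Sox8, Sox10, Sox11, Sox12, Onecut3, Gata4, Gata5, Grhl1 and Grhl3), 4 were high enough to be tested. Grhl1, a paralog of Grhl2, moved opposite to it, at 2.79 ± 0.0277 FPKM in DDC and 1.73 ± 0.26 in Control (0.48 ± 0.07 on the log2 scale, adjusted p = 2.2e-04). In R15 it stood at 2.17 ± 0.16, below DDC (-0.26 ± 0.08, adjusted p = 0.014), a call lost without R15 3 (-0.22, adjusted p = 0.061) and with one FPKM sum for all libraries (-0.18, adjusted p = 0.058). Gata4, a paralog of Gata6 that marks liver sinusoidal endothelium, stood at 0.734 ± 0.324 FPKM in DDC and 6.73 ± 5.37 in Control (-1.93 ± 0.45, adjusted p = 0.0036). In R15 against DDC Gata4 was higher by 1.52 ± 0.49 (adjusted p = 0.021), a call lost with a pseudocount of 5 and without R15 2, R15 3 or DDC 2. The endothelial marker sum moved the same way, and its part in this was not tested. Sox12, of the Sox4 subfamily, gave -0.20 ± 0.09 in DDC against Control (adjusted p = 0.072). It passed without Control 3 (-0.26, adjusted p = 0.024), with one FPKM sum for all libraries and with quantile normalization. In R15 against DDC Sox12 was higher by 0.36 ± 0.10 (adjusted p = 0.0075), a call lost without the libraries with pancreatic transcripts.

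Other liver and bile duct transcription factors changed in both directions, in shares near those of all genes. Of 20 listed, 19 were tested. In DDC against Control 6 were higher and 6 lower, beside 33.5% and 31.9% of all tested genes, with a median log2 fold change of -0.06. Hhex, Nr5a2 and Hes1 were among those that fell. Prox1, a homeobox factor of hepatocytes and lymphatic endothelium, stood at 52.9 ± 13.1 FPKM in R15, 15.6 ± 1.61 in DDC and 48.8 ± 6.39 in Control. Its change was -1.58 ± 0.15 in DDC against Control and 1.67 ± 0.16 in R15 against DDC (limma adjusted p = 1.1e-05 and 2.2e-05). Hnf4g, which encodes a nuclear receptor, changed by -0.92 ± 0.10 in DDC against Control and 0.74 ± 0.11 in R15 against DDC. The 6 that rose in DDC were Zeb2, Cebpb, Klf6, Nr1h4, Cebpa and Ehf, of which 3 passed after scaling to the same FPKM sum and 2 without the libraries with pancreatic transcripts. Macrophage and neutrophil marker sums were highest in the same DDC libraries, and their part in these rises was not tested. Hnf4a, the nuclear receptor of the hepatocyte program, did not pass, at 24.3 ± 0.86 FPKM in DDC and 25.2 ± 4.87 in Control. It was named after its value was seen. In R15 against DDC 7 were higher and 4 lower, beside 33.4% and 28.8% of all tested genes, the lower count being 2 without R15 1, R15 3 or DDC 2.

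**Figure D5:**
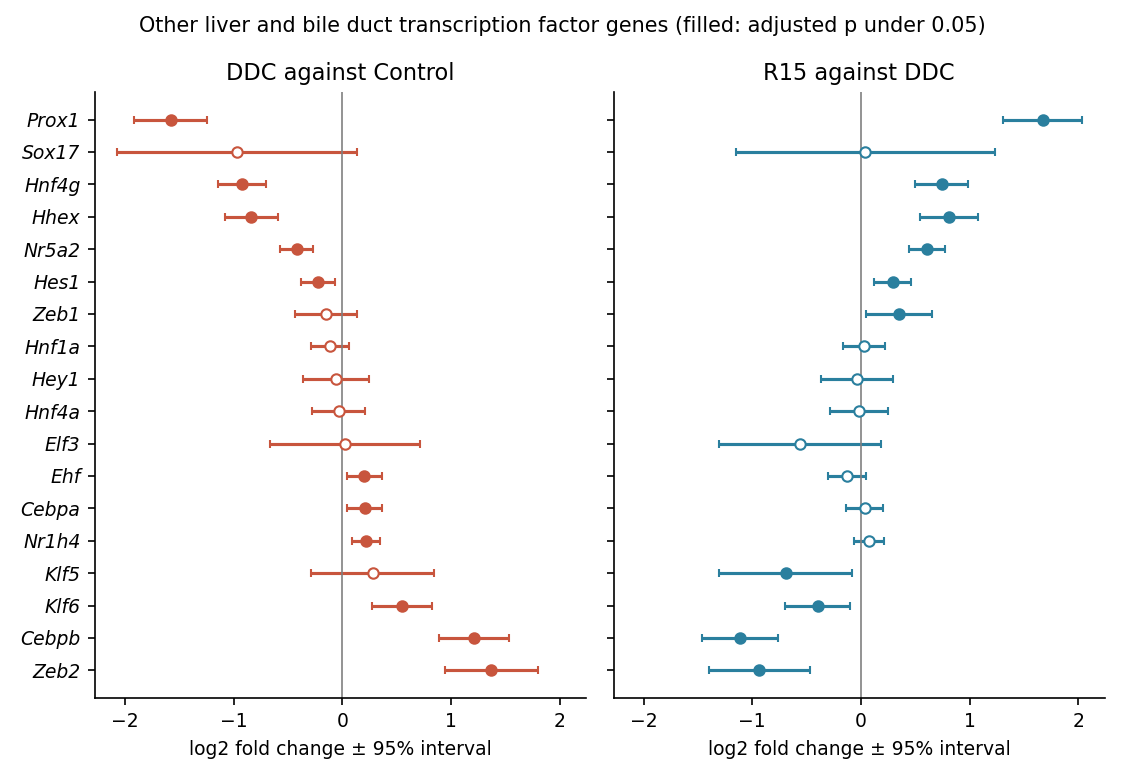
Log2 fold change with 95% interval (limma) of 18 of the tested genes among other liver and bile duct transcription factors, for DDC against Control and R15 against DDC. Filled points passed an adjusted p of 0.05, with 6 of the genes shown higher and 5 lower on the left and 6 higher and 4 lower on the right.

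Genes of the signals upstream of Sox9 were counted in the same way. Of 17 listed Notch and TGF beta genes 16 were tested, and 5 were higher and 7 lower in DDC than in Control, beside 33.5% and 31.9% of all tested genes, with 2 higher without the libraries with pancreatic transcripts. The TGF beta receptor gene Tgfbr1 stood at 28.5 ± 2.47 FPKM in DDC and 10.6 ± 0.57 in Control (1.35 ± 0.09), its signal transducer Smad2 rose by 0.38 ± 0.04 on the log2 scale, and the ligand gene Tgfb3 stood at 14.0 ± 1.73 FPKM in DDC and 25.7 ± 3.11 in Control (-0.83 ± 0.09). The Notch genes Notch1 (-0.76 ± 0.09), Notch2 (-0.56 ± 0.11), Jag1 (-0.46 ± 0.16), Jag2 (-0.77 ± 0.09) and Hes1 (-0.22 ± 0.07) passed as lower in DDC. Rbpj passed as higher (0.23 ± 0.06), and Hey1 and Heyl did not pass. In R15 against DDC 10 were higher and 3 lower, beside 33.4% and 28.8% of all tested genes. The Notch genes lower in DDC all passed as higher there, from 0.29 for Hes1 to 0.73 for Notch2. These Notch genes were named after their values were seen.

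Genes of epithelial junctions that Grhl2 is linked to went both ways. Of 12 tested, 5 were higher and 5 lower in DDC than in Control, beside 33.5% and 31.9% of all tested genes, with a median log2 fold change of 0.05 (3 lower without the libraries with pancreatic transcripts). Cldn4, a claudin that Grhl2 activates in mouse biliary cells, stood at 245 ± 31.2 FPKM in DDC and 33.9 ± 6.12 in Control, a change of 2.83 ± 0.14 (adjusted p = 2.2e-07) opposite in sign to that of Grhl2. Prom2, which encodes a protein of membrane protrusions, was low, at 0.281 ± 0.0353 FPKM in DDC and 1.27 ± 0.23 in Control, and fell by 0.82 ± 0.09 and Esrp2, an epithelial splicing regulator, by 0.47 ± 0.05 on the log2 scale. In R15 against DDC 2 were higher and 5 lower, beside 33.4% and 28.8% of all tested genes (1 higher without R15 1), with Cldn4 at -2.17 ± 0.15.

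Finally, all tested protein-coding genes with a mean of at least FPKM 5 were ranked by their distance from a member, as the root mean square difference of centred log2(FPKM + 1) over the 11 libraries. Nearest to Foxa2 were Cat, the catalase gene, at a distance of 0.0802, Macrod1 at 0.0806 and the gene model Gm44503 at 0.0814. Cat stood at 223 ± 28.3 FPKM in R15, 103 ± 5.98 in DDC and 203 ± 13.8 in Control. Nearest to Grhl2, the gene of the smallest adjusted p in R15 against Control, were Pld1 (0.0426), a phospholipase, Mmp15 (0.0516), a membrane metalloprotease, and Cdk19 (0.0525), a kinase of the Mediator complex.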

How the data were processed

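RNA was measured in 3 R15, 4 DDC and 4 Control mice. FPKM values of all libraries stand in 1 table that the authors deposited, beside gene IDs, symbols, lengths and coordinates. The build was mm10, per the submitters' processing notes, and the kit preserved strand, per the labels' protocols. Aligner, counter and gene models were not given in the sources used here. Deposited FPKM gave whole reads for 100% of nonzero values (tolerance 0.001), after multiplying by the given length plus 1 and taking the least product of each library as 1 read. These reads served for depth and 1 alternative. Their totals of 49339240 to 72929107 bound the counting error only.

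The test took the 15264 genes that reached FPKM 1 in 3 or more libraries, as log2(FPKM + 1), which understates changes of low genes. One limma 3.58.1 fit (R 4.3.3) held all 11 libraries and 3 groups, with variances following the mean, 2-sided p-values and Benjamini-Hochberg adjustment over all genes, at a threshold of 0.05. Ratios of family members were compared with exact permutation tests (scipy 1.17.1). The fits were tested on simulated data first. Same-numbered libraries come from different mice, and the labels name no batch, so no pairing was used. P-values measure the spread between these mice.

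The 9 genes and all lists were chosen with earlier results of these data known. Named beside them are the 3 genes of each pathway list and of the cholangiocyte list with the smallest p in DDC against Control, apart from items not reported here, marker checks, and the 3 genes nearest in pattern to the gene with the smallest adjusted p per comparison. Hnf4a and some cholangiocyte and Notch genes were named after their values were seen. Other cell type lists are given as sums and counts. Exon and overlap data are from GENCODE M21, in which 42462 of the 43346 gene IDs were found. Its exon models differ from the deposited lengths for some genes.

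As alternatives, the pseudocount was set to 0.1 or 5 and the filter dropped or raised to FPKM 5. Scaling was changed to median of ratios, to one FPKM sum or to quantiles. The fit was changed to voom, to robust variances, to 2 groups, to a replicate block or to protein-coding genes. Each library in turn was left out, as were all 5 that held pancreatic transcripts.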

Additional observations from a re-analysis of the deposited data

Results flagged for a closer look

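A library was picked out where its gap to the nearest of the other 3 libraries of its group exceeded 0.829 of the group's range (Dixon's test at 95%). Groups of 3 cannot be checked this way. Of 76 groups checked 6 were picked out, and chance alone picks out about 1 in 20.

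Among the 9 genes, Foxa3 stood apart in DDC 1 at 6.01 FPKM and in Control 3 at 10.2 FPKM, and Gata6 in DDC 4 at 27.6 FPKM. DDC 1 and Control 3 are also the libraries with the highest pancreatic sum of the DDC group, 1128 FPKM, and with a gastric mucous sum of 11250 FPKM. Tspan8 stood apart in Control 3 at 299.5 FPKM, above the other Control libraries. Without Control 3 the Foxa3 change in DDC was -0.37 (limma adjusted p = 0.0504), and without DDC 4 the Gata6 change kept its side of the threshold.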

How the results depend on the processing

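Sox9, Sox4, Onecut1, Foxa1, Foxa2, Gata6 and Grhl2 passed in the same direction in all 24 alternatives, in DDC against Control and in R15 against DDC. The number of the 9 genes that passed was 7 to 8 in both comparisons and 0 in R15 against Control with each library left out. Onecut2 and Foxa3 account for every change of these counts. The change of Onecut2 in R15 against Control reversed to -0.059 without the libraries with pancreatic transcripts. The number of all genes passing in R15 against Control, 1463, was 693 with the replicate number as a block, 305 with the 2 groups alone, 13 without the libraries with pancreatic transcripts (2 R15 and 1 Control library remain, and the lone library is assumed to vary like the others) and 660 to 2184 with each library left out (660 to 970 without R15 1, R15 2, R15 3, DDC 2, Control 1 or Control 3). Its split, 1048 higher and 415 lower, was 622 and 804 with median-of-ratios scaling and 594 and 468 with quantile normalization. The cause of these changes was not tested.

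Same-numbered libraries did not pair throughout: their deviations from the group means correlated across genes between -0.282 and 0.30. The highest values were in DDC against Control, 0.30 for number 1 and 0.247 for number 4. In both the same-numbered Control library was the best match, which did not hold for numbers 2 and 3. The block left 8 of the 9 genes passing in DDC against Control, 8 in R15 against DDC (Onecut2 added at 0.29) and 0 in R15 against Control.

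With a pseudocount of 5 the ratios of Sox9 over Sox4 (-0.37), Onecut1 over Onecut2 (-0.80) and Foxa3 over Foxa2 (0.48) passed in DDC against Control at an adjusted exact permutation p of 0.0381. Foxa1 over Foxa2 in R15 against DDC, at 0.01, reversed to -0.032 with that pseudocount and ran from -0.028 to 0.070 with each library left out. With 3 R15 libraries, no exact test of a ratio against R15 can pass.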

Other observations

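Several gene models beside these genes changed in the same direction as they did. They were taken as all models of GENCODE M21 within 5 kb, a window set after the values were seen, and the 7 that were tested are given. Among all tested genes, 31.9% passed as lower in DDC against Control and 33.4% as higher in R15 against DDC. The lincRNA 9030622O22Rik, 2674 bases from Foxa2, stood at 16.9 FPKM in R15, 4.56 in DDC and 15.2 in Control on average, a log2 fold change of -1.54 ± 0.12 in DDC against Control (SE; limma adjusted p = 2.6e-06) and 1.68 ± 0.13 in R15 against DDC. The noncoding model 1010001N08Rik, on the strand opposite to Gata6 and sharing 93 exon bases with it, stood at 7.95 in R15, 3.48 in DDC and 8.50 in Control (-1.08 ± 0.09, limma adjusted p = 4.7e-06). Gm20649, which shares 2171 same-strand exon bases with Onecut1, stood at 81.4 FPKM in R15, 36.5 in DDC and 72.7 in Control. Onecut1 itself averaged 83.1, 35.4 and 71.6. How far both rest on the same reads was not tested, so Gm20649 cannot be taken as separate from Onecut1. Ncald, a calcium sensor gene 2606 bases from Grhl2, changed by -0.76 ± 0.08 in DDC against Control (limma adjusted p = 2.6e-05) and 0.73 ± 0.09 in R15 against DDC (limma adjusted p = 8.1e-05). Sympk, a gene of messenger RNA 3′ end processing 839 bases from Foxa3, changed less, by -0.14 ± 0.04 (limma adjusted p = 0.0061) and 0.24 ± 0.04 (limma adjusted p = 4.9e-04). BC006965, 248 bases from Sox9 on the opposite strand, lay under the filter, at 0.923 FPKM in R15, 0.311 in DDC and 0.740 in Control.

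The remaining neighbours matched their gene in part or not at all. Gm16136, antisense to Grhl2 with 169 shared exon bases, stood at 5.15 FPKM in R15, 6.46 in DDC and 7.73 in Control, passed in neither comparison with DDC, and differed in R15 against Control (-0.52 ± 0.12, limma adjusted p = 0.030). Gm16551, 1787 bases from Onecut1, stood at 12.2 FPKM in R15, 11.6 in DDC and 18.8 in Control, lower in DDC than in Control (-0.61 ± 0.18, limma adjusted p = 0.013) but not passing in R15 against DDC (0.06 ± 0.20). The opposite-strand model Gm26735 shares 2616 exon bases with Sox4 and reached at most 0.274 FPKM in any library.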
